A study of Mus musculus with 6 samples.

Results

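The mitochondrial respiratory chain consists of 4 membrane complexes that pass electrons from NADH and succinate to oxygen, and of the ATP synthase, called complex V, that uses the resulting proton gradient. Complex I oxidizes NADH, complex II oxidizes succinate, complex III passes electrons from coenzyme Q to cytochrome c, and complex IV is cytochrome c oxidase. Most of their subunits are encoded in the nucleus, translated in the cytosol and imported, while a few membrane subunits are encoded in mitochondrial DNA. B cells that differentiate into antibody-secreting cells use both glycolysis and respiration, which makes these transcripts of interest beside the secretory genes of the same cells.

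The genes described here are the protein-coding genes whose symbol starts with *Nduf* (followed by a, b, c, s or v), with *Uqcr*, with *Cox4* to *Cox8* or with *Atp5*, together with *Sdha* to *Sdhd*. There were 86 such rows among the 54446 genes of the table: 38 of complex I, 4 of complex II, 8 of complex III, 18 of complex IV and 18 of complex V. They carry 85 symbols, since *Atp5o* has 2 rows. Assembly factors were kept apart. The names place *Ndufa4* in complex I, although its protein is now counted with complex IV, and *Atp5s* in complex V, although it is a coupling factor. They leave out *Cyc1*, cytochrome c1 of complex III, which was kept with the electron carriers.

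RNA came from naive splenic B cells of *Tent5c* KO mice and WT littermates, all of a mixed C57BL/6J X CBA strain and 12 to 15 weeks old. The KO is a germline lesion made with Cas9, so that it is present in every cell of the animal, and both genotypes came from heterozygous parents and were housed together. Cells isolated by immunomagnetic negative selection were activated in both groups for 7 days, LPS being given at 20 µg/ml together with 20 ng/ml of IL-4, and 3 libraries of each genotype were sequenced. A replicate number stands for 1 KO and 1 WT littermate processed as a batch, and these 3 pairs are called pairs 1, 2 and 3.

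The libraries held 5393558 to 6793520 fragments assigned to genes, the WT library of pair 3 being the shallowest. *Tent5c*, which encodes the poly(A) polymerase targeted in the KO, was present at 1993, 993 and 1170 normalized counts under the KO label and at 1255, 767 and 1585 under the WT label (pairs 1 to 3). The groups overlapped, with a log2 fold change of 0.20 ± 0.19 (SE; adjusted *p* = 0.970, limma), so the RNA level of the target does not check the labels. All 7 B cell markers and 6 of 7 plasma cell markers averaged 10 or more normalized counts, against 1 of 10 T cell, 2 of 10 myeloid, 1 of 5 NK cell and 0 of 7 erythroid markers. Summed over 7 genes, the plasma cell markers came to 17051, 9457 and 11909 normalized counts in the KO libraries and to 12204, 9079 and 19822 in the WT libraries. The 13 protein-coding genes of mitochondrial DNA, which supply further subunits, are listed at 0 in all 6 libraries, as are the other mitochondrial genes of the table, and were not analysed.

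Promoters of respiratory genes are known for binding sites of NRF1, a factor that activates many nuclear genes of mitochondrial function. RefSeq promoter windows on GRCm38.p6, from 250 bases before to 50 after the start of transcription, were at hand for 67 of the 85 symbols. The NRF1 core, CGCATGCG, which reads the same on both strands, was found in 9 of the 67 (13.4%): *Atp5g2*, *Atp5j*, *Atp5k*, *Atp5l*, *Cox6a1*, *Ndufa11*, *Ndufa8*, *Uqcr11* and *Uqcrc1*. The share was 4.87% of the 8359 tested protein-coding genes with a window and 2.07% of all 27025 symbols with a window. The YY1 motif AAGATGGC, searched on both strands as were the motifs that follow, was in 13.4% of the members' windows against 5.91% of those of the tested genes. The corresponding shares were 7.46% and 10.5% for the ETS motif CCGGAAGT, 5.97% and 3.88% for the CRE motif TGACGTCA, and 40.3% and 70.6% for the shorter Sp1 motif GGGCGG. None of these motifs contains another. The 67 windows include some of members that were not tested, whereas the shares beside them cover tested genes only.

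Stretches upstream of 3 members that lie outside the annotated gene models are printed below to show the NRF1 core in its surroundings, each on the coding strand and with matched motifs in capitals. The first holds 2 motifs, the CRE motif and the NRF1 core, before *Ndufa11* (chr17:56717589-56717725, plus strand). The others hold the NRF1 core before *Cox6a1* (chr5:115349100-115349131, minus strand) and *Atp5l* (chr9:44920964-44920992, minus strand).
Ndufa11: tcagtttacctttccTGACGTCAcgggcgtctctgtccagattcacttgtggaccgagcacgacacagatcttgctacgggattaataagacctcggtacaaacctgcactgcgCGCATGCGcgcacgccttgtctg
Cox6a1: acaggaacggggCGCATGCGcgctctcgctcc
Atp5l: aaccaataaCGCATGCGcatttcccccac
The core began 59 bases before the start of *Ndufa11*, 161 before that of *Cox6a1* and 241 before that of *Atp5l*. Their log2 fold changes of KO over WT were -0.30, 0.11 and -0.26. The median over the 9 members with the core was -0.064, and over the 54 tested members with a window but no core -0.031. A TATA box, TATAAA on either strand, was in 10.4% of the windows of members and 7.81% of those of tested genes. The member share counts *Cox7b2* and *Cox8b*, which were not tested. Among the tested members with a window, 5 had the box and 58 did not.

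Of the 86 members, 78 averaged 10 or more normalized counts and were tested, with means from 49.9 (*Atp5s*) to 5501 (*Atp5b*). Their median was 449, against 179 over all 12322 genes tested. Together the members took 0.777% ± 0.026 of the fragments in the KO libraries and 0.779% ± 0.014 in the WT libraries (SD, n = 3 each). Complex V held the most fragments, 0.310% ± 0.011 in KO and 0.309% ± 0.004 in WT. *Atp5a1* and *Atp5b*, the alpha and beta subunits that form the catalytic head of ATP synthase, alone made up 21.1% to 22.2% of the fragments of all members.

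Levels of different genes were compared per kb of exon, where exon length is the union over all annotated transcripts. On this scale of normalized counts per kb, the median over the tested members was 193 ± 12 for complex I, 218 ± 11 for complex II, 281 ± 28 for complex V, 379 ± 24 for complex III and 595 ± 40 for complex IV (SD over the 6 libraries). The median over all genes tested was 44.5. Among the tested members, complex IV was highest and complex III second in all 6 libraries, and complex V stood above complexes I and II in all 6. With the untested isoforms included, complex IV fell to 301, below complex III. Complexes I and II did not separate: complex II was higher in 5 libraries and complex I in the WT library of pair 3, where the values were 218 and 216. The order of complexes III and V depended on the length used. With the length of the longest transcript the medians were 476 for complex III and 504 for complex V, and with the coding length 991 and 1586.

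Members of one complex differed more from each other than the complexes did. In complex I the level ran from 27.5 normalized counts per kb for *Ndufb2*, an accessory subunit whose annotated exons include a long isoform (5628 bases in all), to 742 for *Ndufa2*. In complex II the membrane anchors *Sdhc* (126) and *Sdhd* (481) were the extremes. In complex III *Uqcrq*, a small accessory subunit, was lowest (134) and *Uqcr10*, another small subunit, highest (801). In complex IV *Cox6a2* was lowest among those tested (179) and *Cox8a*, the smallest nuclear-encoded subunit, highest (1367). Complex V spanned the widest range, from 24.5 for *Atp5s* to 1634 for *Atp5a1*, a ratio of 66.8. The plot of levels shows this spread beside the narrow spread of the complex medians over libraries.

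**Figure D1:**
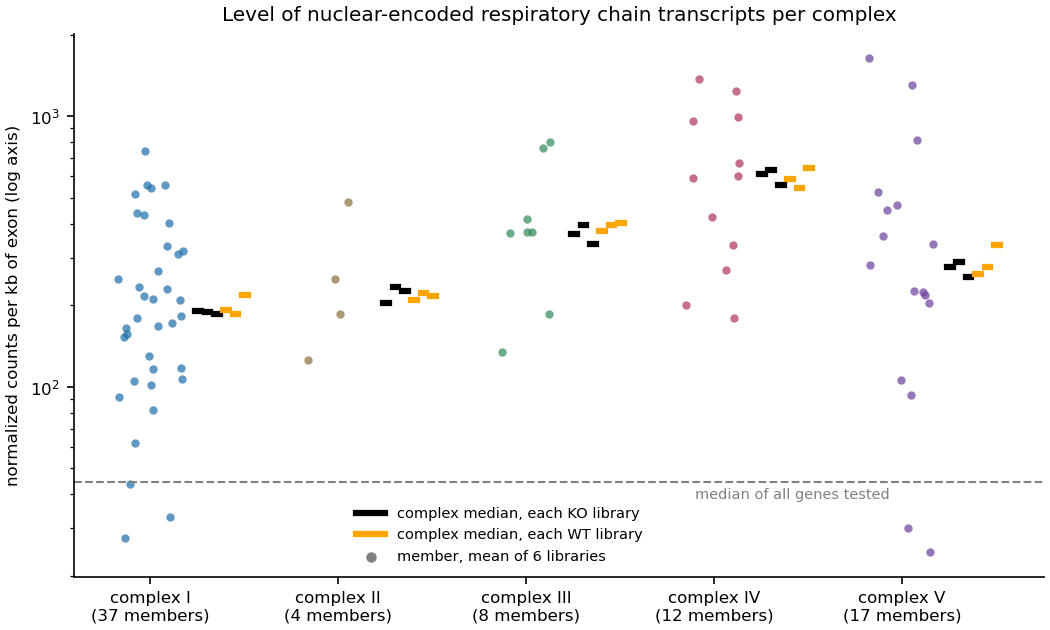
Level of the 78 tested members by complex, in normalized counts per kb of exon on a log axis. Each dot is a member (mean of 6 libraries) and each bar the median of the complex in 1 library; the bars lie near 193, 218, 379, 595 and 281 for complexes I to V, while members within a complex differ by up to 66.8 times.

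The genotype comparison asks whether loss of *Tent5c* goes with a different level of these transcripts. No member passed the test. In limma with the batch in the model, 0 of the 78 members and 0% of the 12322 genes had an adjusted *p*-value under 0.05, and the smallest adjusted value among the members was 0.970. Before adjustment, 1 member was lower in KO with *p* under 0.05, against 3.03% of all genes, and 0 members were higher, against 1.67% of all genes. edgeR on the recovered fragments called 0 members too. Before adjustment it put 2 members lower, against 2.99% of all genes, and 0 higher, against 1.62%. DESeq2 called 0.232% of the 9894 genes for which it gave an adjusted *p*-value, and 0 of the 78 members with one. Before adjustment it put 0 members lower and 0 higher, against 0.786% and 0.134% of the 24684 genes with a *p*-value. In limma without pair 1, 4 members were lower before adjustment, against 5.09% of all genes.

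The intervals limit how large a difference could have been missed. Fold changes of the members ran from 0.783 (*Uqcrq*) to 1.09 (*Ndufs6*) in KO over WT. The 95% confidence interval of the log2 fold change contained 0 for 77 of the 78 members, lay within ±0.5 for 71 and within ±1 for all 78. Its half-width had a median of 0.22, against 0.29 over all genes tested. The plot of fold changes shows the intervals of 77 of the members tested.

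**Figure D2:**
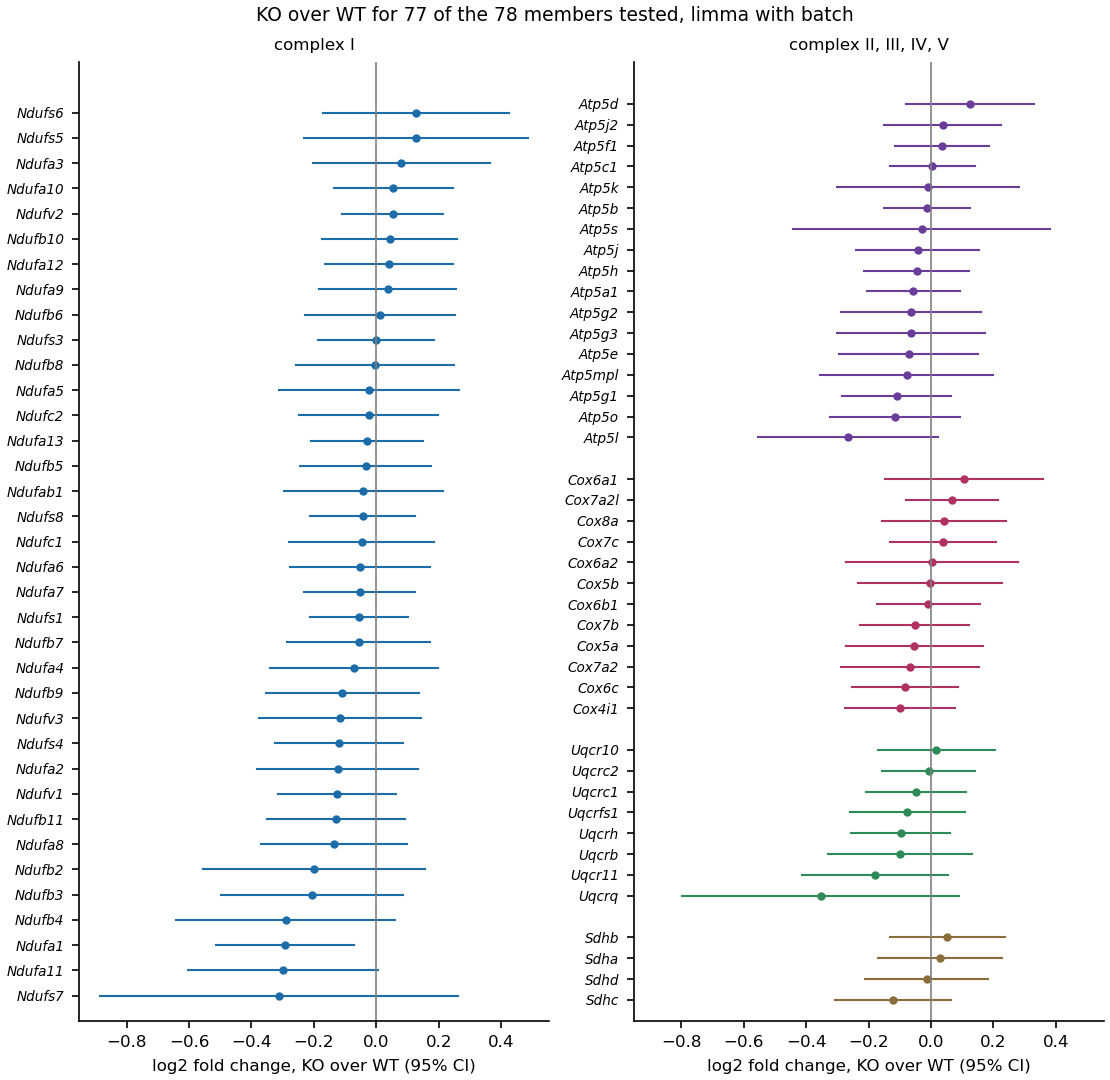
Log2 fold change of KO over WT with its 95% confidence interval for 77 of the 78 tested members, from limma with the batch in the model. Members are ordered within complexes, and the intervals drawn cross 0 except that of *Ndufa1*.

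In complex I, core subunits had small differences. *Ndufv1*, which binds NADH, had 394 to 465 normalized counts in KO and 442 to 479 in WT, with a log2 fold change of -0.13 ± 0.079 (SE). *Ndufs1*, an iron-sulfur subunit of the same arm, had 637 to 657 in KO and 661 to 684 in WT (-0.055 ± 0.066). The values of *Ndufs1* did not overlap between the groups, by a narrow margin, whereas those of *Ndufv1* did. The share of all genes tested without overlap is not given, so absence of overlap, here and below, is description only.

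The member of complex I with the lowest fold change was *Ndufs7* (chr10:80249121-80256794), a core subunit that carries the last iron-sulfur cluster before coenzyme Q. It had 461, 435 and 325 normalized counts in the KO libraries of pairs 1 to 3 and 349, 538 and 662 in the WT libraries. The pairs disagreed, KO being higher in pair 1 and lower in the others, and the log2 fold change of -0.31 ± 0.24 had the widest interval of all members (-0.88 to 0.26). The highest fold change was that of *Ndufs6*, an accessory subunit, with 121, 155 and 149 in KO and 105, 166 and 123 in WT (0.13 ± 0.12), again with overlapping groups.

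*Ndufa1* (chrX:37187588-37191163), a small membrane subunit of complex I, is the member with an unadjusted *p*-value under 0.05 and was named for that after its values were seen. It had 202, 175 and 232 normalized counts in KO and 231, 221 and 297 in WT. KO was lower in each pair, by log2 ratios of -0.20, -0.33 and -0.35, although the groups overlapped by a small margin. The log2 fold change was -0.29 ± 0.092 (95% confidence interval -0.51 to -0.073, unadjusted *p* = 0.017 and adjusted *p* = 0.970 in limma). *Ndufa11*, another membrane subunit, also named after its values were seen, had 159, 158 and 162 in KO and 186, 167 and 243 in WT, without overlap, and a log2 fold change of -0.30 ± 0.13 (unadjusted *p* = 0.054 in limma and adjusted *p* = 0.970).

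In complex II, *Sdha*, the flavoprotein that oxidizes succinate, had 714 to 818 normalized counts in KO and 700 to 830 in WT (log2 fold change 0.029 ± 0.083). *Sdhb*, the iron-sulfur subunit, had 527 to 616 in KO and 525 to 586 in WT and the highest fold change of the complex (0.052 ± 0.077). *Sdhc*, a membrane anchor, had the lowest, with 410, 342 and 420 in KO and 452, 347 and 483 in WT (-0.12 ± 0.078). In every subunit of complex II the groups overlapped.

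In complex III, *Uqcrfs1*, the Rieske iron-sulfur protein, had 467 to 511 normalized counts in KO and 512 to 537 in WT (log2 fold change -0.076 ± 0.076). Its groups did not overlap, by a narrow margin (511 and 512). *Uqcrc1*, a core protein, had 715 to 788 in KO and 726 to 842 in WT (-0.048 ± 0.066). The lowest value of all members belonged to *Uqcrq* (chr11:53427922-53430831), with 267, 189 and 187 in KO and 271, 202 and 360 in WT. Pairs 1 and 2 were nearly even and pair 3 had a log2 ratio of -0.94, so that the fold change of -0.35 ± 0.18 came mostly from pair 3. *Uqcr10* had the highest value of the 8 members of the complex (0.018 ± 0.078). *Cyc1*, the subunit that the names leave out, was at 0.10 ± 0.089.

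In complex IV, *Cox4i1*, the largest nuclear-encoded subunit, had the lowest fold change, with 1760, 1961 and 1837 normalized counts in KO and 1843, 1920 and 2202 in WT (-0.099 ± 0.074). *Cox5a* had 532 to 571 in KO and 533 to 647 in WT (-0.054 ± 0.091). *Cox6a1* had the highest, with 411, 461 and 414 in KO and 379, 364 and 456 in WT (0.11 ± 0.11). Each of these pairs of groups overlapped.

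In complex V, *Atp5b* had 5249, 5609 and 5572 normalized counts in KO and 5344, 5573 and 5657 in WT (log2 fold change -0.013 ± 0.057). *Atp5a1* had 4793, 5422 and 4861 in KO and 5110, 5309 and 5234 in WT (-0.056 ± 0.061). *Atp5l*, the g subunit of the membrane part, was lowest, with 191, 193 and 147 in KO and 196, 227 and 211 in WT (-0.26 ± 0.12), and its groups did not overlap. *Atp5d*, the delta subunit of the central stalk, was highest, with 463, 445 and 407 in KO and 388, 400 and 417 in WT (0.12 ± 0.085). The plot of single libraries shows several of these genes beside *Tent5c*.

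**Figure D3:**
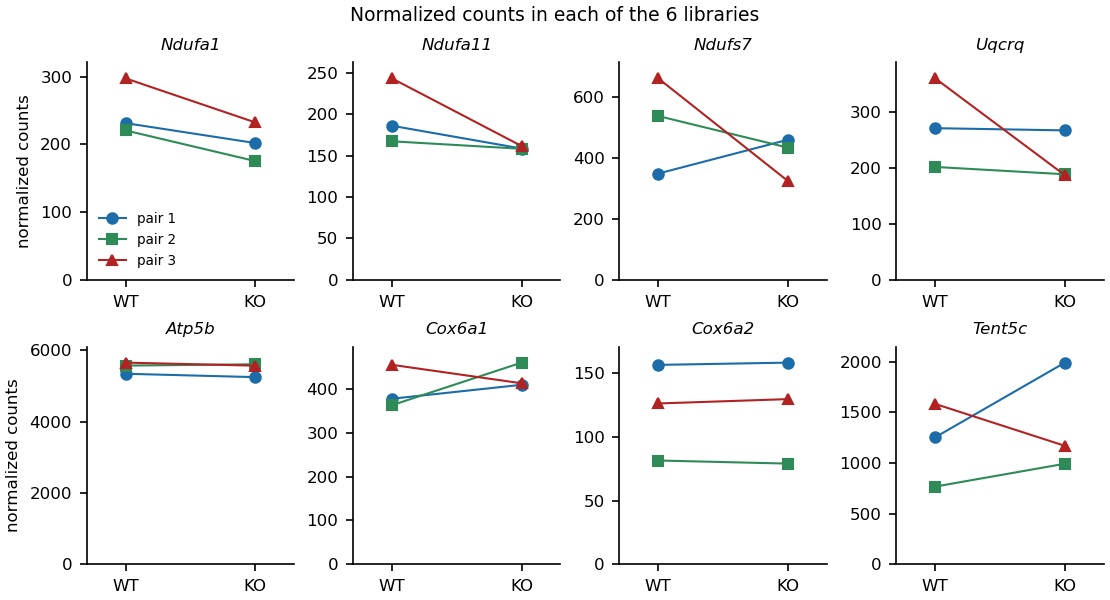
Normalized counts of 7 members and *Tent5c* in each of the 6 libraries, with a line joining the WT and KO littermates of a pair and axes that start at 0. *Ndufs7* and *Uqcrq* differ mainly in pair 3, *Ndufa1* is lower in KO in each pair, and *Cox6a2* is ordered by pair in both genotypes.

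By complex, the median log2 fold change of KO over WT was -0.047 for complex I, 0.0082 for complex II, -0.086 for complex III, -0.0056 for complex IV and -0.045 for complex V. Over all members tested it was -0.047, and over all genes 0.00067. Of the 78 members 57 (73.1%) had a negative fold change, against 49.8% of all genes tested. The quartiles of the members were -0.099 and 0.0043, which lie inside the typical half-width of a single member's interval. Differences between complexes were not tested.

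The ratio within each pair shows where the negative median came from. In pair 1 the complex medians were -0.035, -0.086, -0.022, -0.014 and -0.011 for complexes I to V. In pair 2 they were 0.0020, 0.072, -0.0022, 0.080 and 0.030. In pair 3 all of them were negative, as in pair 1, at -0.15, -0.072, -0.17, -0.095 and -0.11. They were further below 0 than in pair 1 except for complex II. KO was lower in 47 of 78 members in pair 1 (53.2% of all genes tested), in 32 in pair 2 (49.9%) and in 65 in pair 3 (49.5%). Without pair 3 the median over the members was 0.0050 and 38 of the 78 were negative. Without pair 2 it was -0.090, and without pair 1 -0.047.

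**Figure D4:**
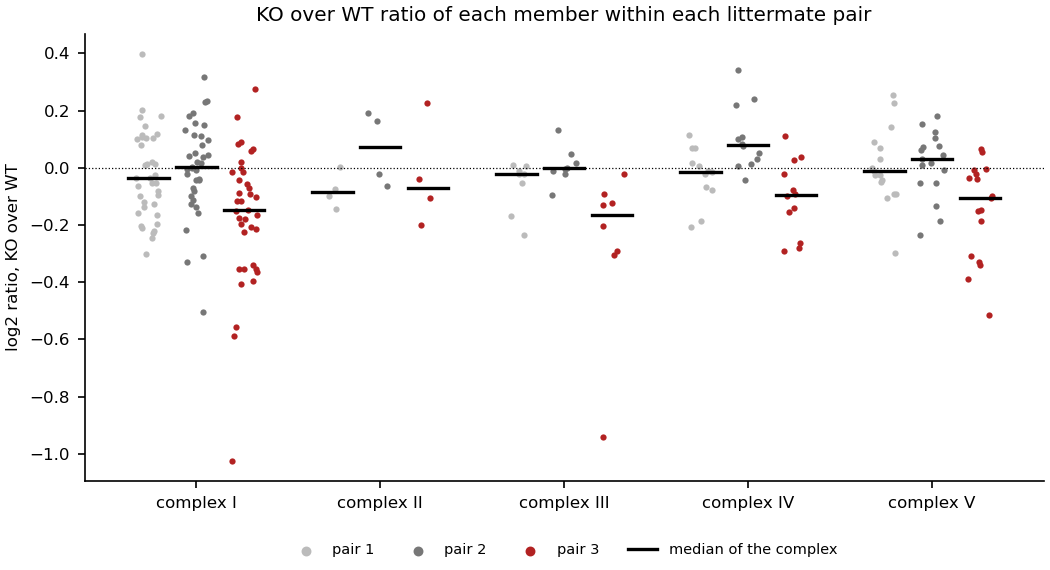
Log2 ratio of KO over WT for each tested member within pairs 1, 2 and 3, by complex, with the complex median as a bar. In pair 3 the 5 medians lie between -0.072 and -0.17, against -0.086 to -0.011 in pair 1 and -0.0022 to 0.080 in pair 2.

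The members' lower ratio in pair 3 involved both libraries. The WT library of pair 3 was the highest of the 6 for 38 of the 78 members (48.7%, against 23.1% of all genes tested), and the KO library of pair 3 was the lowest for 25 (32.1%, against 13.2% of all genes). Deviations from the group means also correlated least within pair 3, at 0.17 over all genes tested and -0.038 over the members. The values in pairs 1 and 2 were 0.33 and 0.68 over all genes, and 0.21 and 0.62 over the members. In pair 3, protein-coding genes whose longest transcript is under 1000 nt had a median log2 ratio of -0.088 (410 genes), and those of 1000 nt or more 0.017 (10055 genes). The 36 members under 1000 nt had a median of -0.15 and the 42 longer ones -0.10. Spearman's correlation of the pair 3 ratio with transcript length was 0.24 across the 12315 tested genes with a length, which are of all types. Pairs 1 and 2 gave 0.016 and 0.026. Over the 78 members alone, the values for pairs 1 to 3 were -0.25, -0.077 and 0.16. Among the members the relation to length was thus strongest in pair 1, where its sign was opposite to that of pair 3. Genes are not independent replicates, and these values are a description. The summed plasma cell markers were also lower in KO in pair 3 (11909 against 19822) and higher in KO in pair 1. The sum leans on its abundant genes. In pair 3 *Jchain* had 2722 in KO against 8096 in WT, *Xbp1* 4906 against 6463 and *Slamf7* 1296 against 1444. *Jchain* is also 1 of the mRNAs whose decay the paper followed in KO cells. The part of transcript length, of the depth of the WT library and of plasma cell RNA in the members' ratio was not tested. In bulk RNA, fewer cells of a type and less RNA per cell cannot be told apart.

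KO was lower in all 3 pairs for 17 of the 78 members (21.8%), against 13.1% of all genes tested. They were 9 members of complex I, 1 of complex II, 4 of complex III, 0 of complex IV and 3 of complex V, and include *Ndufs1*, *Ndufv1*, *Ndufa1*, *Sdhc*, *Uqcrfs1*, *Uqcrq* and *Atp5l*. With quantile normalization the number was 12. The share of all genes with that normalization is not given, and the 13.1% does not apply to it. KO was higher in all 3 pairs for 1 member, against 11.7% of all genes. This was *Ndufb10*, named for that after its values were seen, with pair ratios of 0.11, 0.0020 and 0.020.

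Several subunits of complexes IV and V exist as paralogous isoforms, some of which are known from muscle, heart, testis or lung. In 6 of the 8 families compared, *Ndufa4* among them, 1 isoform held at least 97.5% of the fragments in each library, the others being *Cox6a1* with *Cox6a2* and the *Atp5g* genes. *Cox4i1* had 11561 fragments over the 6 libraries and the lung-type *Cox4i2* 2. *Cox7a2* had 3423 and the muscle-type *Cox7a1* 10. *Cox7b* had 4939 and *Cox7b2* 0, and *Cox8a* had 5120 while *Cox8b* and *Cox8c* had 0. Where no fragment was counted, up to 3 remain possible, which is 2.72 to 3.61 normalized counts depending on the library. *Ndufa4* had 3568 fragments and the hypoxia-inducible *Ndufa4l2* 4. *Cox7a2l*, a paralog linked to respiratory supercomplexes, was left out of the *Cox7a* family when these shares were taken. It was abundant, with 1312 to 1589 normalized counts, above *Cox7a2* with 493 to 603. The share of at least 97.5% for *Cox7a2* therefore holds against *Cox7a1* only.

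*Cox6b2*, the testis-type partner of *Cox6b1*, was just under the filter. It had 6.61, 8.58 and 17.3 normalized counts in KO and 3.78, 2.09 and 13.2 in WT, which is 2 to 19 fragments per library, while *Cox6b1* had 644 to 730 normalized counts. The 8 members that were not tested are *Cox6b2*, *Cox4i2*, *Cox7a1*, *Cox7b2*, *Cox8b*, *Cox8c*, *Ndufa4l2* and the second row of *Atp5o*, which overlaps the first on the same strand and was at 0 in all libraries.

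*Cox6a2*, the isoform known from heart and skeletal muscle, was present in every library. It had 159, 79.1 and 130 normalized counts in the KO libraries of pairs 1 to 3 and 157, 81.6 and 126 in the WT libraries. The genotypes were close within each pair, with a log2 fold change of 0.0037 ± 0.11 (95% confidence interval -0.27 to 0.28), and the level followed the pair. As a share of all *Cox6a1* and *Cox6a2* fragments, it ranged from 14.6% in the KO library of pair 2 (95% exact Clopper-Pearson interval 11.8 to 17.8) to 29.3% in the WT library of pair 1 (25.6 to 33.2). These intervals cover counting error only. In the test of the replicate number, 1.15% of all genes and 0 members passed at an adjusted *p*-value under 0.05. *Cox6a2* was the member nearest to it (unadjusted *p* = 0.00092, adjusted *p* = 0.063, limma F-test). The summed plasma cell markers were likewise lowest in pair 2 in both genotypes. In WT, however, they were highest in pair 3 (19822, against 12204 in pair 1), whereas *Cox6a2* was highest in pair 1. The part of plasma cell RNA in the level of *Cox6a2* was not tested.

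The c subunit of ATP synthase, which forms its rotating ring, is encoded by 3 genes with different import sequences and the same mature protein. All 3 were used. *Atp5g3* had 44.4% to 48.9% of their fragments, *Atp5g1* 27.3% to 30.5% and *Atp5g2* 21.9% to 25.9% over the 6 libraries. These shares are not corrected for length, and the order of *Atp5g1* and *Atp5g2* depended on it. Per kb of exon their levels were 93.5 and 223, and per kb of coding sequence 1125 and 854. *Atp5g3* was highest on both scales (337 and 1738). The plot of isoforms shows these families side by side.

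**Figure D5:**
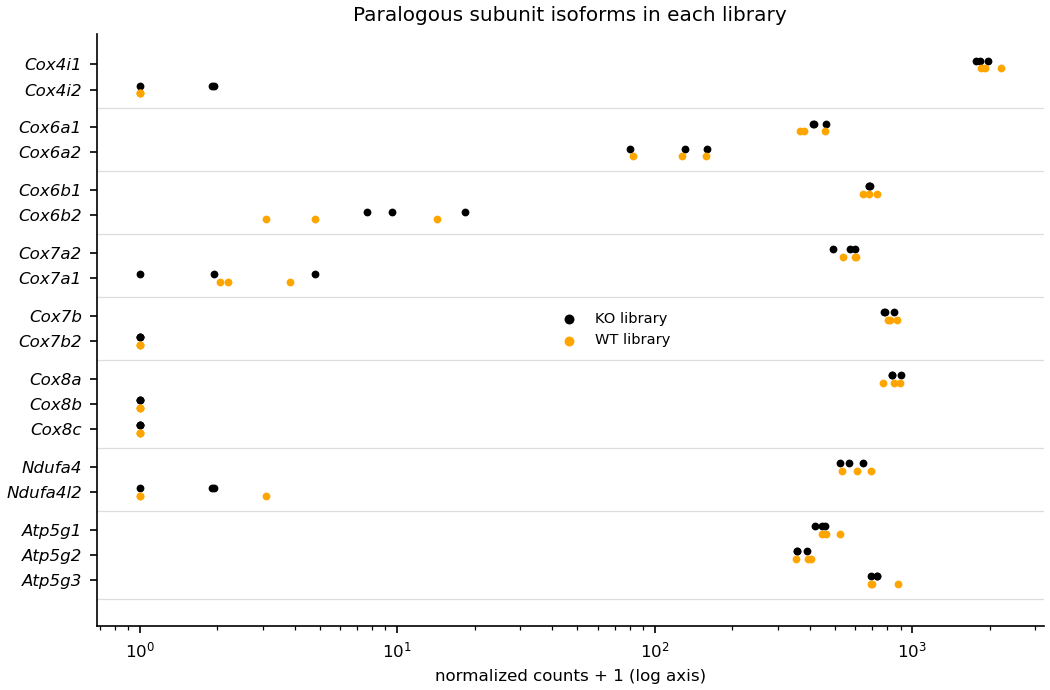
Normalized counts + 1 of paralogous subunit isoforms in each library, on a log axis, KO above and WT below each line. In the families of *Cox4*, *Cox7a*, *Cox7b*, *Cox8* and *Ndufa4* the second isoform lies at or near 0 (drawn at 1). *Cox6a2* lies near 100 and the 3 *Atp5g* genes lie within a narrow range. *Cox7a2l*, which was abundant, is not drawn.

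Ambiguously mapped fragments were not counted, and respiratory genes have many processed pseudogenes, so counts of members with near-identical copies are uncertain and may be too low. Of the 13 rows that carry a member's name prefix but are not typed as protein-coding, 12 had means under 10 normalized counts. The other was *Ndufb1-ps*, which is typed as a long noncoding RNA and had 392 to 424 normalized counts in KO and 421 to 497 in WT, a level like that of many complex I members. Copies under other names are not covered by this search. Of the tested members, 12 overlap another annotated gene on the same strand, where fragments shared by both were not counted.

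No gene of the lists that build, feed or regulate the complexes passed the adjusted test either. Genes are counted below as lower or higher at an unadjusted *p* under 0.05 in limma. Of all genes tested 3.03% were lower and 1.67% higher at that threshold. Of 49 assembly factors 47 were tested, of which none had *p* under 0.05 before adjustment (0 lower, 0 higher), with a median log2 fold change of -0.035. The extremes were *Sco2*, a copper chaperone of complex IV, with 23.6, 25.7 and 22.7 normalized counts in KO and 26.4, 25.1 and 50.6 in WT (-0.41 ± 0.30), and *Coa7*, another complex IV factor (0.24 ± 0.19). The high WT value of *Sco2* was again in pair 3. Of 15 electron carriers and coenzyme Q enzymes 1 was lower and 0 higher, with a median of -0.065. This was *Coq8a*, needed for coenzyme Q synthesis, with 178, 217 and 211 in KO and 263, 272 and 216 in WT (-0.30 ± 0.12, unadjusted *p* = 0.043 and adjusted *p* = 0.970 in limma). *Etfb*, of the electron transfer flavoprotein, had the highest value (0.12 ± 0.17).

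At an unadjusted *p* under 0.05 in limma, 0 of 17 genes of the TCA cycle and pyruvate dehydrogenase were lower and 0 higher. Their median log2 fold change was 0.0065, and 8 of the 17 were negative. Fumarate hydratase, *Fh1*, had the lowest value (-0.18 ± 0.098) and *Idh3a*, of isocitrate dehydrogenase, the highest (0.22 ± 0.11). Of 16 regulators of respiratory genes 15 were tested, again with 0 lower and 0 higher at that threshold and a median of 0.015. *Ppargc1b*, a coactivator with 9.44 to 18.2 normalized counts, was lowest (-0.23 ± 0.37), and *Nrf1* itself, with 380 to 416 in KO and 376 to 380 in WT, highest (0.086 ± 0.077).

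For scale, 77 tested mitochondrial ribosomal protein genes had a median log2 fold change of -0.018, with 1 lower and 0 higher. The 85 cytosolic ribosomal protein genes had -0.0048, with 0 lower and 1 higher. These counts are at an unadjusted *p* under 0.05 in limma, where 3.03% of all genes were lower and 1.67% higher. In pair 3 the medians of the mitochondrial and cytosolic genes were -0.069 and -0.011, against -0.12 for the respiratory chain members. The difference between these lists was not tested.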

How the data were processed

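Bulk RNA was sequenced from 3 KO and 3 WT cultures. The authors trimmed the reads with cutadapt, aligned them to GRCm38 (mm10) with STAR 2.6.1a, counted fragments on Gencode vM19 exons with featureCounts (Subread 1.6.3, reverse-stranded, properly paired, mapping quality of at least 10). Size factors of DESeq2 were then applied by the authors, and the deposited signal is the resulting normalized count of each of 54446 genes. Such scaling hides a change shared by most transcripts. Whole fragments were recovered for 100% of the values above 0 (tolerance 0.01 of a fragment). Gencode vM21 (GRCm38) gave symbols, types, positions and lengths for 54409 identifiers.

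The test was limma 3.58.1 in R 4.3.3 (two-sided, eBayes with trend, Benjamini-Hochberg adjustment), fitted to log2(normalized count + 1) with condition and batch for the 12322 genes that averaged 10 or more. Fold changes are on that scale. As alternatives the recovered fragments were tested with edgeR 4.0.16 (quasi-likelihood) and DESeq2 1.42.0, and the fits were tested on simulated data. Other alternatives were a pseudocount of 5, no filter or a mean of at least 50, TMM or quantile scaling, no batch term, and each pair left out in turn. Littermates pair the libraries. Deviations from the group means correlated within pairs 1, 2 and 3 at 0.33, 0.68 and 0.17 over all genes tested and at 0.21, 0.62 and -0.038 over the members. Over all genes the KO library of pair 3 correlated more with the WT library of pair 1 (0.28) than with its own. No library was a duplicate: chi-square per gene was 4.82 to 24.3 over all pairs of libraries.

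The members and lists were chosen with earlier results of these data known. Genes named with fold changes are *Tent5c*, 11 core subunits (1 of which is not reported here), the lowest and highest of each complex and list, and any member called by a test. Named by level are the lowest and highest per complex, the isoform families and the members under the filter.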

Additional observations from a re-analysis of the deposited data

How the results depend on the processing

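No member was called at an adjusted *p*-value under 0.05 in any of the 12 fits. The number of members lower in KO at an unadjusted *p*-value under 0.05, 1 in the reported fit with the batch, was 0 with no replicate block, so the pairing decides that value. It was 2 with edgeR and 0 with DESeq2, and ran from 0 to 4 (of 78) when 1 pair was left out, the 4 being without pair 1, where 5.09% of all genes were lower. The number higher, 0 otherwise, ran from 0 to 1 when 1 pair was left out. The number higher in all 3 pairs, 1 as reported, was 2 with no filter and 2 with quantile normalization. Complex medians of the log2 fold change moved by less than the SD of the pair medians in all alternatives, though some signs changed. That SD, 0.070 to 0.089, was larger than the size of each complex median, so this is a wide margin. Without pair 3 the medians were 0.014, -0.018, -0.010, 0.040 and 0.009 for complexes I to V, only that of complex III keeping its sign. Complex II was -0.059 without pair 2, and complex IV 0.0083 with quantile normalization. The block left the complex medians and the number higher as they were.

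The level per kb of complexes I to V was 253, 359, 476, 758 and 504 with the longest transcript as length, 242, 261, 427, 653 and 429 as a mean over members, and 592, 735, 991, 2600 and 1586 with the coding length, which was added after seeing the data. Complex IV fell to 301 with untested isoforms included, below complex III at 379. The change of length and the zero isoforms set these shifts by construction.

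Of 28 genes chosen for naming with fold changes, 9 turned sign in 1 alternative each. *Atp5b* was 0.033 with quantile normalization. With 1 pair left out, values ran from -0.033 to 0.52 for *Tent5c*, -0.069 to 0.081 for *Sdha*, -0.017 to 0.097 for *Sdhb*, -0.040 to 0.072 for *Uqcr10*, -0.11 to 0.060 for *Cox5a*, -0.012 to 0.23 for *Cox6a1*, -0.67 to 0.045 for *Ndufs7*, -0.57 to 0.0021 for *Ppargc1b*. The cause was not tested. Without pair 1, limma called 171 genes and no member. Depth limits the members with under 100 normalized counts most.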
